A study of Mus musculus with 9 samples.

Results

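The proteasome subunit genes were taken as every gene whose symbol begins with Psma, Psmb, Psmc, Psmd, Psme, Psmf or Psmg followed by a number, read from probe sets that the array's platform annotation pairs with exactly 1 symbol. This gave 48 genes with 700 probe sets, out of 22071 genes with 316997 such probe sets. The rule reads names and no measured value, though the set was picked with earlier results of these data known. The cells were C2C12, a mouse myoblast cell line, and RNA was taken 48 h after transfection with an siRNA against Cugbp1, an siRNA against Mbnl1 or a control siRNA, with 3 exon arrays in each group. The Cugbp1 gene is now named Celf1, and its product, like that of Mbnl1, binds RNA and acts on splicing and on mRNA stability. Cells of all groups were transfected, so none of them is an untreated culture. They were grown in medium with serum, which does not by itself show how far they had differentiated. The labels do not say whether the replicates were separate cultures, so p-values measure only how far these arrays spread, and that spread may be technical.

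The proteasome is the large protease that degrades proteins marked with ubiquitin chains. Its core particle is a barrel in which outer rings of alpha subunits gate the entry and inner rings of beta subunits carry the proteolytic sites. A regulatory particle, made of a base with a ring of ATPases and a lid, binds ubiquitin chains, removes them and unfolds the substrate. Other caps activate or inhibit the core, dedicated chaperones assemble the rings, and interferon-inducible beta subunits can replace the constitutive ones to form the immunoproteasome. In muscle the ubiquitin-proteasome system turns over contractile and regulatory proteins and is known for its part in atrophy.

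Gene values are log2 intensities, each the Tukey median polish of the probe sets of a gene whose mean over all 9 arrays was at least 6.997, the 75th percentile of all probe sets on the array. A gene was tested with at least 3 such probe sets. This held for 43 of the 48 genes, with 563 probe sets. Psma8, Psmb8 and Psmg3 had 1 probe set each above the threshold, Psmb11 had none, and Psme2 had 2. The 43 genes were bright: their median value was 10.16, against 8.56 for all 12646 genes tested, and no member fell below the threshold on any array. A difference is the log2 value of the siRNA group minus that of the control group, from a limma fit of all 12646 genes, and a gene was called where its p-value, adjusted over those genes by Benjamini and Hochberg, was under 0.05.

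The arrays carried the labelled treatments. Celf1 fell by 1.46 on the log2 scale after Cugbp1 siRNA and Mbnl1 fell by 1.35 after Mbnl1 siRNA, without overlap with the control arrays. Median intensities of the arrays were 42.3 to 42.8 after Cugbp1 siRNA, 42.5 to 42.9 after Mbnl1 siRNA and 43.6 to 43.8 in controls. Of the 8 myoblast markers, 7 passed the filter on weak signals, among them Myod1, Myf5 and Des, while Myog, a marker of the start of differentiation, had only 2 of 4 probe sets above the threshold. Of the 7, Myod1 and Cdh15 were called higher after Cugbp1 siRNA and Myf5 lower after Mbnl1 siRNA. The same 3 control arrays serve both comparisons with control, so the values after the 2 siRNAs are not independent of each other. In RNA from whole cultures, fewer cells of a type and less RNA per cell cannot be told apart.

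Most proteasome subunit genes moved little after either siRNA. After Cugbp1 siRNA 12 of the 43 were called, 11 of them higher and 1 lower. That is 27.9% of the members, beside 38.7% of all genes tested (26% higher and 12.7% lower). After Mbnl1 siRNA 6 of 43 were called, 4 higher and 2 lower, which is 14% beside 41.5% of all genes (26.9% higher and 14.6% lower). Between the siRNAs 3 of 43 were called, all higher after Cugbp1 siRNA, which is 6.98% beside 9.34% of all genes (4.27% higher and 5.07% lower). Counting both directions, the members' shares were below those of all genes in each comparison. Arrays of the siRNA and control groups did not overlap for 15 of 43 members after Cugbp1 siRNA, beside 48.8% of all genes. Of these, 14 were higher, beside 32.9%, and 1 lower, beside 15.9%. After Mbnl1 siRNA 14 of 43 did not overlap, beside 57.5% of all genes, 10 of them higher, beside 37.3%, and 4 lower, beside 20.3%. Between the siRNAs it was 8 of 43, beside 29.5%, with 6 higher after Cugbp1 siRNA, beside 15.1%, and 2 lower, beside 14.4%.

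How many members were called higher and how many lower depended on how the arrays were scaled. With the gene values of each array centred on the median of all genes, a setting added after the data had been seen, 3 members were higher and 3 lower after Cugbp1 siRNA, and 1 was higher and 6 were lower after Mbnl1 siRNA. With the gene values quantile-normalised, added in the same way, the counts were 5 higher and 1 lower, and 1 higher and 3 lower. Centring the probe sets of each array on their median moved the counts the other way, to 13 higher and 0 lower after Cugbp1 siRNA and 10 higher and 1 lower after Mbnl1 siRNA. The median of all genes lay at 0.05 after Cugbp1 siRNA and 0.04 after Mbnl1 siRNA in the values as deposited, where 36 and 26 of the 43 members lay above 0. With centred gene values these medians were -0.03 and -0.03, and 19 and 12 members lay above 0, so the sign of a small change depends on the scaling. Single arrays also moved the counts. After Cugbp1 siRNA the count was 6 without Cugbp1 array 2 and 7 without Cugbp1 array 3, control array 1 or control array 3. After Mbnl1 siRNA it was 2 without Mbnl1 array 1, 1 without Mbnl1 array 3 or control array 2, and 3 without control array 1 or 3. Between the siRNAs no member was called without Cugbp1 array 2, Mbnl1 array 1 or Mbnl1 array 2, and 1 without Mbnl1 array 3. Calls that held in all 19 alternative settings were those of Psmd10, Psmc6 and Psma5 after Cugbp1 siRNA and of Psmd10 after Mbnl1 siRNA.

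The changes of most members were also small in size. The median absolute change was 0.08 for the members and 0.13 for all genes after Cugbp1 siRNA, and 0.05 for the members and 0.14 for all genes after Mbnl1 siRNA. All changes of members lay between -0.18 and 0.37 after Cugbp1 siRNA and between -0.26 and 0.30 after Mbnl1 siRNA. For comparison, the 5th and 95th percentiles of all genes were -0.30 and 0.35 after Cugbp1 siRNA and -0.32 and 0.40 after Mbnl1 siRNA. A change of at least 1.2-fold was reached by 1 member, Psmg1, after Cugbp1 siRNA, beside 18.3% of all genes, and by 1 member, Psmd10, after Mbnl1 siRNA, beside 22.1%. Between the siRNAs no member reached it, beside 5.44% of all genes. The 95% interval lay wholly within 1.2-fold of no change for 29 of 43 members after Cugbp1 siRNA and for 36 of 43 after Mbnl1 siRNA, beside 47.8% and 46.2% of all genes. That bound was chosen after the values were seen; with a bound of a 25% rise or its inverse, used first, the counts were 37 and 39 of 43, beside 63.5% and 60.2%. Brightness and probe number differed as well: members had a median of 12 kept probe sets, against 10 for all genes, and a median standard error of 0.050, against 0.058. Their part in the narrower spread was not tested.

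**Figure D1:**
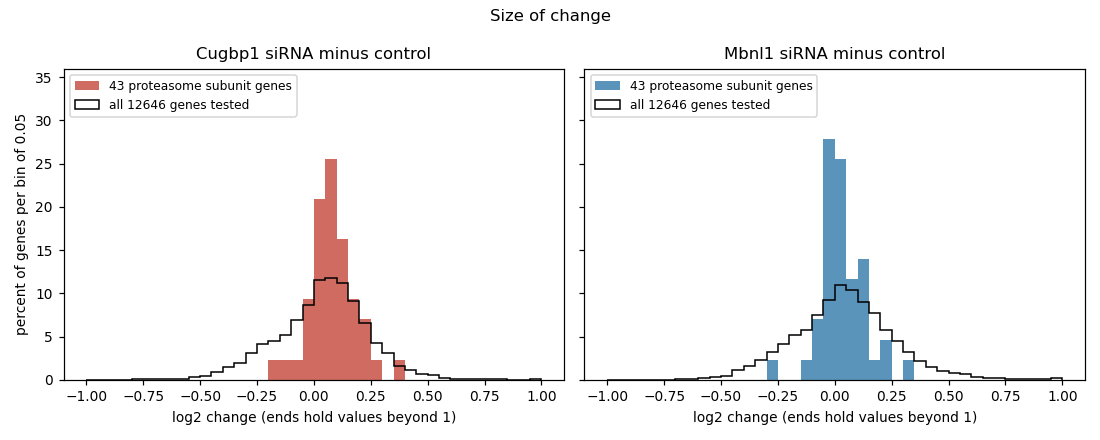
Share of genes (percent per bin of 0.05 log2 units) by log2 change after Cugbp1 siRNA (left) and Mbnl1 siRNA (right), for the 43 proteasome subunit genes (filled) and all 12646 genes tested (line). The members stay between -0.26 and 0.37 in both panels, while all genes extend further on both sides.

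The catalytic beta subunits held nearly the same level in all groups. Psmb5, the constitutive chymotrypsin-like subunit, read 12.48, 12.51 and 12.48 on the Cugbp1 siRNA arrays, 12.49, 12.48 and 12.52 on the Mbnl1 siRNA arrays and 12.47, 12.51 and 12.46 on the control arrays. The groups overlapped fully, and the change was 0.01 after each siRNA, with 95% intervals of -0.08 to 0.10 and -0.07 to 0.10. Psmb6, the caspase-like subunit, read 10.77, 10.67 and 10.61 after Cugbp1 siRNA, 10.57, 10.52 and 10.60 after Mbnl1 siRNA and 10.54, 10.64 and 10.59 in controls. Its changes of 0.09 and -0.03 did not pass (limma, adjusted p = 0.176 and 0.688), and with the mean of the probe sets in place of the median polish the first became 0.19 and passed (adjusted p = 0.0182). Psmb7, the trypsin-like subunit, read 10.55, 10.55 and 10.56 after Cugbp1 siRNA, 10.45, 10.41 and 10.55 after Mbnl1 siRNA and 10.522, 10.457 and 10.497 in controls. All 3 Cugbp1 siRNA arrays lay above the controls by a narrow margin, with a change of 0.06 (95% interval -0.04 to 0.16) that did not pass.

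None of the 7 constitutive beta subunit genes was called in any comparison. Their changes ran from -0.02 in Psmb4 to 0.14 in Psmb2 after Cugbp1 siRNA and from -0.03 in Psmb6 to 0.11 in Psmb1 after Mbnl1 siRNA. The value of Psmb2 rested on 1 array: Cugbp1 array 1 read 11.79, against 11.57 and 11.51 on the other Cugbp1 siRNA arrays and 11.43 to 11.53 in controls. The class median was 0.07 after Cugbp1 siRNA and -0.00 after Mbnl1 siRNA, close to the medians of all genes at 0.05 and 0.04.

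Of the interferon-inducible subunits, only Psmb9 and Psmb10 could be tested. Psmb9, which replaces Psmb6 in the immunoproteasome, read 7.70, 7.86 and 7.67 after Cugbp1 siRNA, 7.59, 7.82 and 7.55 after Mbnl1 siRNA and 7.94, 7.97 and 7.83 in controls. Mbnl1 siRNA arrays all lay below the controls, the closest only just, while Cugbp1 siRNA arrays overlapped them. Psmb9 fell by 0.26 after Mbnl1 siRNA (SE 0.08; limma, adjusted p = 0.0229), and its change after Cugbp1 siRNA was -0.18 (adjusted p = 0.0983). The call after Mbnl1 siRNA was lost without Mbnl1 array 1 (adjusted p = 0.0877), Mbnl1 array 3 (0.0933), control array 1 (0.0957) or control array 2 (0.0573). Psmb9 is among the dimmest members, with 4 kept probe sets.

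Psmb10, which replaces Psmb7, read 8.13, 8.24 and 8.29 after Cugbp1 siRNA, 8.26, 8.09 and 8.23 after Mbnl1 siRNA and 8.29, 8.24 and 8.07 in controls. The groups overlapped, with changes of 0.02 (95% interval -0.14 to 0.17) and -0.01 (-0.17 to 0.15). Psmb8, which replaces Psmb5, had 10 of its 11 probe sets below the threshold and was not tested. The median of all its probe sets was 5.12, 5.78 and 4.78 after Cugbp1 siRNA. It was 4.88, 5.12 and 4.92 after Mbnl1 siRNA and 5.24, 5.19 and 5.20 in controls. Mbnl1 siRNA arrays all lay below the controls, while Cugbp1 siRNA arrays overlapped them. These medians averaged 5.23 ± 0.51 after Cugbp1 siRNA, 4.97 ± 0.13 after Mbnl1 siRNA and 5.21 ± 0.02 in controls (SD, n = 3). With weak probe sets kept in, Psmb8 was tested and called lower after each siRNA, at levels where the size of a change is uncertain.

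Most markers of cell types other than myoblasts moved in the same direction as Psmb9. Of 15 such markers of leucocytes, endothelium, epithelium, fat and nerve, 9 passed the filter. After Cugbp1 siRNA 6 of these 9 were called lower and 0 higher, beside 12.7% and 26% of all genes. After Mbnl1 siRNA 5 were called lower and 1 higher, beside 14.6% and 26.9%. The 1 called higher was the nerve marker Tubb3 (0.18), and the nerve marker Gfap was not called in either comparison. The summed intensity of the 9 was 2166 to 2342 on the Cugbp1 siRNA arrays and 2258 to 2398 on the Mbnl1 siRNA arrays, against 2580.0 to 2653 on the control arrays. For the 4 of 5 leucocyte markers tested, Ptprc, Csf1r, Itgam and Cd3e, the sums were 856 to 899 and 871 to 957, against 1047 to 1099.7. An array gives no true zero, and Ptprc, the defining leucocyte marker, stayed at 7.21 to 7.55, near the filter threshold. The part of these weak signals in the fall of Psmb9 was not tested.

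Within the alpha rings the members did not move as 1 block. After Cugbp1 siRNA 3 of 7 tested alpha subunit genes were called higher and 1 lower, and after Mbnl1 siRNA 1 was called higher. Of all genes, 26% were called higher and 12.7% lower after Cugbp1 siRNA, and 26.9% higher after Mbnl1 siRNA. Psma5 read 9.81, 9.79 and 9.72 after Cugbp1 siRNA, 9.55, 9.58 and 9.62 after Mbnl1 siRNA and 9.53, 9.62 and 9.46 in controls. Every Cugbp1 siRNA array lay above every other array. It rose by 0.24 after Cugbp1 siRNA (SE 0.05; limma, adjusted p = 0.00549), an increase of 18.0%, and its change after Mbnl1 siRNA was 0.05 (adjusted p = 0.476). All 4 of its kept probe sets were higher after Cugbp1 siRNA; 19 more probe sets list Psma5 together with another symbol and were not used.

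Psma7 read 9.64, 9.44 and 9.44 after Cugbp1 siRNA, 9.31, 9.49 and 9.45 after Mbnl1 siRNA and 9.23, 9.30 and 9.30 in controls. Both siRNA groups lay above the controls, and Cugbp1 array 1 stood above the others of its group. Psma7 rose by 0.23 after Cugbp1 siRNA (limma, adjusted p = 0.0218). The call was lost without control array 1 (adjusted p = 0.0671) and with the centred (0.150) or quantile-normalised (0.199) gene values. After Mbnl1 siRNA its change of 0.14 did not pass (adjusted p = 0.118).

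Psma6 read 11.26, 11.34 and 11.32 after Cugbp1 siRNA, 11.30, 11.30 and 11.26 after Mbnl1 siRNA and 11.20, 11.11 and 11.19 in controls. All siRNA arrays lay above all control arrays. Psma6 rose by 0.14 after Cugbp1 siRNA and by 0.12 after Mbnl1 siRNA (limma, adjusted p = 0.0277 and 0.04998, the second just under the threshold). The first call was lost without Cugbp1 array 2 (0.0772) or 3 (0.0577) or without control array 1 (0.0538), 2 (0.114) or 3 (0.0634). The second was lost without any 1 of the Mbnl1 siRNA or control arrays, at an adjusted p of 0.0608 to 0.171.

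Psma1 was the only member called lower after Cugbp1 siRNA. It read 10.93, 10.95 and 10.93 on those arrays, 11.04, 11.08 and 11.07 after Mbnl1 siRNA and 11.06, 11.05 and 11.09 in controls. The Cugbp1 siRNA arrays lay close together and below all others. Psma1 fell by 0.13 (SE 0.04; limma, adjusted p = 0.0213), and 11 of its 12 probe sets were lower. The call was lost without Cugbp1 array 2 (0.0552) or 3 (0.0693) or control array 3 (0.0925). Its change after Mbnl1 siRNA was -0.01. Psma2, Psma3 and Psma4 changed by -0.03 to 0.07 after Cugbp1 siRNA and by 0.01 to 0.04 after Mbnl1 siRNA and were not called.

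**Figure D2:**
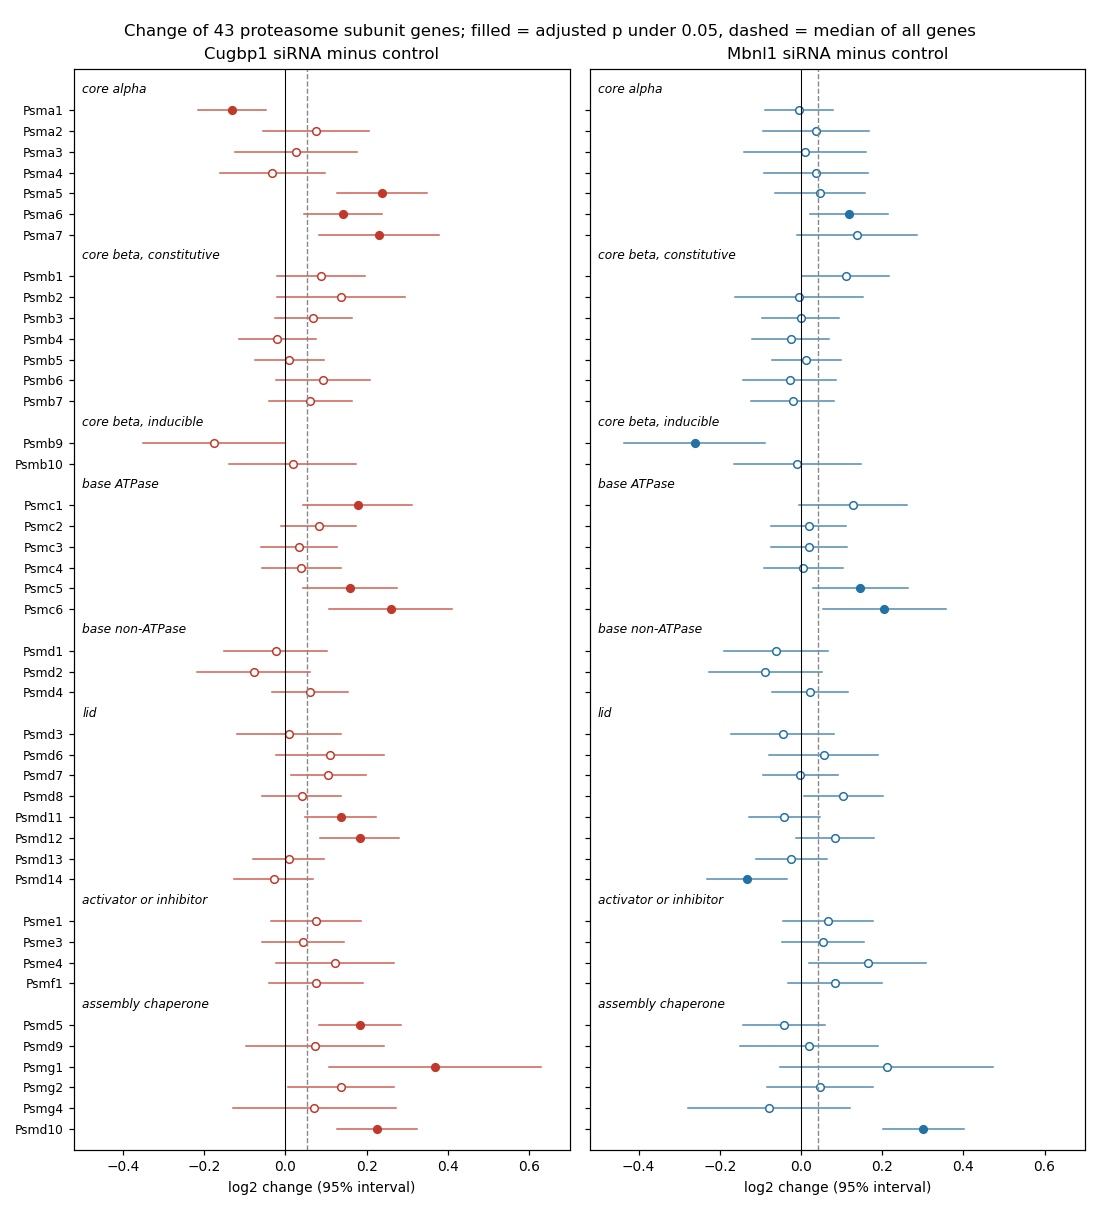
Log2 change (points) with its 95% interval (lines) for each of the 43 tested proteasome subunit genes after Cugbp1 siRNA (left) and Mbnl1 siRNA (right), grouped by role. Filled points passed the test, 12 on the left and 6 on the right, and the dashed line is the median of all genes, 0.05 and 0.04.

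The ATPases of the base unfold substrates. Of these 6 members 3 were called higher after Cugbp1 siRNA, beside 26% of all genes, and 2 after Mbnl1 siRNA, beside 26.9%. Psmc6 read 10.41, 10.51 and 10.59 after Cugbp1 siRNA, 10.41, 10.41 and 10.51 after Mbnl1 siRNA and 10.33, 10.11 and 10.29 in controls. All siRNA arrays lay above the controls, of which control array 2 was the lowest. Psmc6 rose by 0.26 after Cugbp1 siRNA (SE 0.07; limma, adjusted p = 0.0144), with 18 of 18 probe sets higher, and by 0.21 after Mbnl1 siRNA (adjusted p = 0.0342), with 15 of 18 higher. The call after Mbnl1 siRNA was lost without Mbnl1 array 3 (0.121), control array 2 (0.0979) or control array 3 (0.0555), and with centred gene values (0.116).

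Psmc5 read 9.46, 9.58 and 9.56 after Cugbp1 siRNA, 9.53, 9.49 and 9.53 after Mbnl1 siRNA and 9.38, 9.29 and 9.45 in controls. The siRNA arrays lay above the controls, the closest only just. Psmc5 rose by 0.16 and 0.15 (limma, adjusted p = 0.0364 and 0.0468). Both calls were weak. The first was lost without Cugbp1 array 2 (0.117) or 3 (0.0983), Mbnl1 array 1 (0.0768) or 2 (0.0732), or control array 1 (0.0673) or 2 (0.0737). The second was lost without Cugbp1 array 2 or 3, without any 1 of the Mbnl1 siRNA arrays, and without control array 1 or 2, at 0.0508 to 0.132. With weak probe sets kept in, the changes were 0.06 and 0.07.

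Psmc1 read 10.27, 10.32 and 10.33 after Cugbp1 siRNA, 10.29, 10.27 and 10.21 after Mbnl1 siRNA and 10.24, 10.00 and 10.16 in controls. The Cugbp1 siRNA arrays lay above the controls and the Mbnl1 siRNA arrays overlapped them. Psmc1 rose by 0.18 after Cugbp1 siRNA (limma, adjusted p = 0.0397), and its change of 0.13 after Mbnl1 siRNA did not pass (0.111). The call was lost without Cugbp1 array 2 or 3, without any 1 of the Mbnl1 siRNA arrays, and without control array 2 or 3, at 0.0503 to 0.0956. The remaining ATPase genes, Psmc2, Psmc3 and Psmc4, changed by 0.03 to 0.08 and by 0.01 to 0.02 and were not called.

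None of the 3 tested non-ATPase genes of the base was called. They were the scaffold subunits Psmd1 (-0.02 and -0.06) and Psmd2 (-0.08 and -0.09) and the ubiquitin receptor Psmd4 (0.06 and 0.02), with the value after Cugbp1 siRNA given first. Cugbp1 array 1 was low for both scaffold genes: Psmd1 read 11.40 there, against 11.61 and 11.57 on the other Cugbp1 siRNA arrays, and Psmd2 read 11.38, against 11.61 and 11.57. Across the 43 members, that array was the farthest from its group mean in 25, beside 48.9% of all genes.

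In the lid, 2 of 8 members were called higher after Cugbp1 siRNA, beside 26% of all genes, and 1 lower after Mbnl1 siRNA, beside 14.6%. Psmd11, a scaffold subunit of the lid, read 10.80, 10.87 and 10.83 after Cugbp1 siRNA, 10.63, 10.66 and 10.67 after Mbnl1 siRNA and 10.67, 10.71 and 10.70 in controls. The Cugbp1 siRNA arrays lay above all others. Psmd11 rose by 0.14 (SE 0.04; limma, adjusted p = 0.0218), with 18 of 20 probe sets higher, and its change after Mbnl1 siRNA was -0.04. The call was lost without Cugbp1 array 2 (0.0774) or 3 (0.0726), control array 1 (0.0679) or control array 3 (0.0867), and with centred (0.271) or quantile-normalised (0.0735) gene values.

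Psmd12, another scaffold subunit of the lid, read 10.21, 10.27 and 10.29 after Cugbp1 siRNA, 10.12, 10.14 and 10.22 after Mbnl1 siRNA and 10.10, 10.07 and 10.06 in controls. Both siRNA groups lay above the controls. It rose by 0.18 after Cugbp1 siRNA (limma, adjusted p = 0.00952), a call that held whichever array was left out and was lost without the filter on weak signals (0.0514) and with centred gene values (0.0576). After Mbnl1 siRNA its change of 0.08 did not pass.

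Psmd14, the lid enzyme that cuts ubiquitin chains from the substrate, read 10.877, 10.996 and 10.950 after Cugbp1 siRNA, 10.83, 10.88 and 10.81 after Mbnl1 siRNA and 10.97, 10.98 and 10.96 in controls. The Mbnl1 siRNA arrays lay below the controls. Psmd14 fell by 0.13 after Mbnl1 siRNA (limma, adjusted p = 0.0349), while its change after Cugbp1 siRNA was -0.03. The call was lost without Mbnl1 array 1 (0.103) or 3 (0.128) and without control array 1 (0.0984), 2 (0.0916) or 3 (0.0692). With the mean of the probe sets in place of the median polish the change was -0.04. The other 5 lid genes, Psmd3, Psmd6, Psmd7, Psmd8 and Psmd13, changed by 0.01 to 0.11 after Cugbp1 siRNA and by -0.05 to 0.10 after Mbnl1 siRNA and were not called.

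Of the assembly chaperones, 3 of 6 tested were called higher after Cugbp1 siRNA, beside 26% of all genes, and 1 after Mbnl1 siRNA, beside 26.9%. Psmd10, also known as gankyrin, a chaperone of base assembly and an oncoprotein of liver, read 9.74, 9.83 and 9.75 after Cugbp1 siRNA, 9.89, 9.85 and 9.81 after Mbnl1 siRNA and 9.53, 9.59 and 9.52 in controls. All 6 siRNA arrays lay above all controls. Psmd10 rose by 0.23 after Cugbp1 siRNA and by 0.30 after Mbnl1 siRNA (SE 0.05 each; limma, adjusted p = 0.00416 and 0.000763), which is 17.0% and 23.3%, with 8 of 8 probe sets higher in both. Its change was 0.14 to 0.27 and 0.22 to 0.36 over the 19 alternative settings.

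Psmd5, a base assembly chaperone that is not part of the finished complex, read 10.21, 10.32 and 10.27 after Cugbp1 siRNA, 10.03, 10.03 and 10.08 after Mbnl1 siRNA and 10.12, 10.10 and 10.03 in controls. The Cugbp1 siRNA arrays lay above all others and the remaining groups overlapped. Psmd5 rose by 0.18 after Cugbp1 siRNA (limma, adjusted p = 0.0116), with 13 of 13 probe sets higher, and its change after Mbnl1 siRNA was -0.04. The call was lost without Cugbp1 array 2 (0.0634) and with centred (0.0701) or quantile-normalised (0.0527) gene values.

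Psmg1, a chaperone of alpha ring assembly, read 9.46, 8.99 and 9.01 after Cugbp1 siRNA, 8.87, 9.06 and 9.05 after Mbnl1 siRNA and 8.76, 8.91 and 8.69 in controls. Cugbp1 array 1 stood far above the other arrays of its group, and control array 2 lay above Mbnl1 array 1. Psmg1 rose by 0.37 after Cugbp1 siRNA (SE 0.12; limma, adjusted p = 0.0324), the largest change of any tested member there, and its change of 0.21 after Mbnl1 siRNA did not pass (0.172). Without Cugbp1 array 1 the rise was 0.22 and no longer passed (0.0561). The call was also lost without Mbnl1 array 3 (0.0505), control array 1 (0.0683) or control array 3 (0.0992).

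Of the other chaperone genes tested, Psmg2, the partner of Psmg1, changed by 0.14 and 0.05, Psmg4 by 0.07 and -0.08 and Psmd9 by 0.07 and 0.02, none of them called. No activator or inhibitor gene was called either. Psme4, which encodes the large cap activator PA200, changed by 0.12 and 0.16 (limma, adjusted p = 0.156 and 0.0667), Psme3 by 0.04 and 0.06, Psme1 by 0.08 and 0.07 and the inhibitor gene Psmf1 by 0.08 and 0.08. Psme2, the partner of Psme1, was not tested: the median of its 2 probe sets was 9.33 ± 0.04 after Cugbp1 siRNA, 9.36 ± 0.09 after Mbnl1 siRNA and 9.43 ± 0.06 in controls (SD, n = 3).

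**Figure D3:**
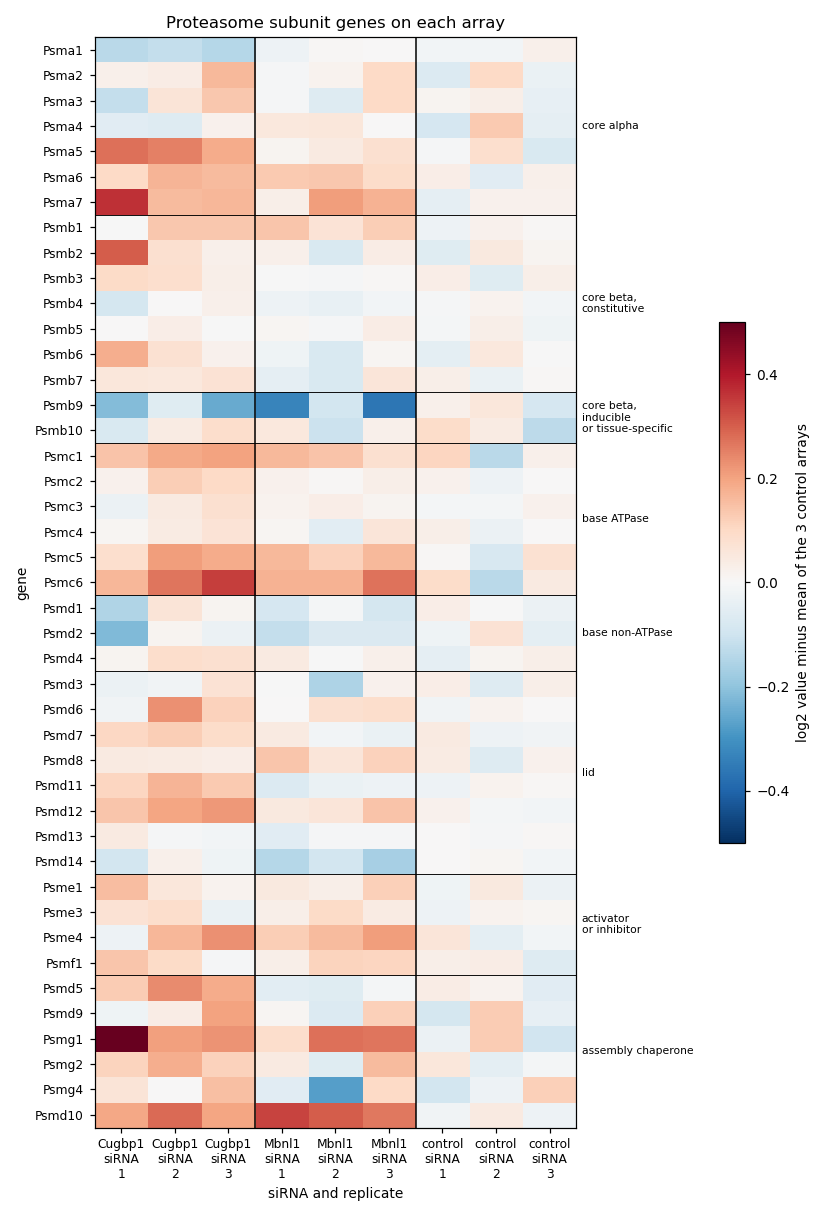
Log2 value of each tested proteasome subunit gene (rows, by role) on each of the 9 arrays (columns), as the difference from the mean of the 3 control arrays. The Psmd10 and Psmc6 rows are higher on all 6 siRNA arrays, Psma5, Psmd5 and Psmd11 on the Cugbp1 siRNA arrays, and Psmb9 is lower on the siRNA arrays.

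The comparison of the siRNAs with each other asks which subunit genes responded differently to them, and it does not use the control arrays for its means. Psmd5 was higher after Cugbp1 siRNA than after Mbnl1 siRNA by 0.23 (SE 0.05; limma, adjusted p = 0.0134). Psmd11 was higher by 0.18 (SE 0.04, adjusted p = 0.0198) and Psma5 by 0.19 (SE 0.05, adjusted p = 0.0403). For each of the 3 genes the lowest Cugbp1 siRNA array exceeded the highest Mbnl1 siRNA array. With a smaller set of arrays the calls were not stable: Psmd5 was lost without Cugbp1 array 2 (0.0763), Mbnl1 array 1 (0.0588) or Mbnl1 array 2 (0.0624). Psmd11 was lost without Cugbp1 array 2 (0.0721) or 3 (0.0593) or any 1 Mbnl1 siRNA array (0.0568 to 0.1002). Psma5 was lost without Cugbp1 array 1 or 2, any 1 Mbnl1 siRNA array or control array 1 (0.0662 to 0.293).

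The 3 genes have different roles, an assembly chaperone, a lid subunit and an alpha subunit. Their differences between the siRNAs were also called with centred and with quantile-normalised gene values. Which siRNA group stood apart from control depended on the scaling for Psmd5 and Psmd11. With centred gene values neither was called after Cugbp1 siRNA, and both were called lower after Mbnl1 siRNA, each with a change of -0.12 (limma, adjusted p = 0.0393 for Psmd5 and 0.0306 for Psmd11). With quantile-normalised gene values neither was called after Cugbp1 siRNA, and Psmd5 was called lower after Mbnl1 siRNA (-0.12, adjusted p = 0.0416). Psma1 differed in the other direction by -0.13 and did not pass (limma, adjusted p = 0.0654). Psmd10 differed by -0.08 and Psmc6 by 0.05, and neither passed (0.341 and 0.688), with 95% intervals of -0.18 to 0.02 and -0.10 to 0.21. Over all 43 members the differences between the siRNAs ran from -0.13 to 0.23, with a median of 0.04 beside 0.01 for all genes.

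**Figure D4:**
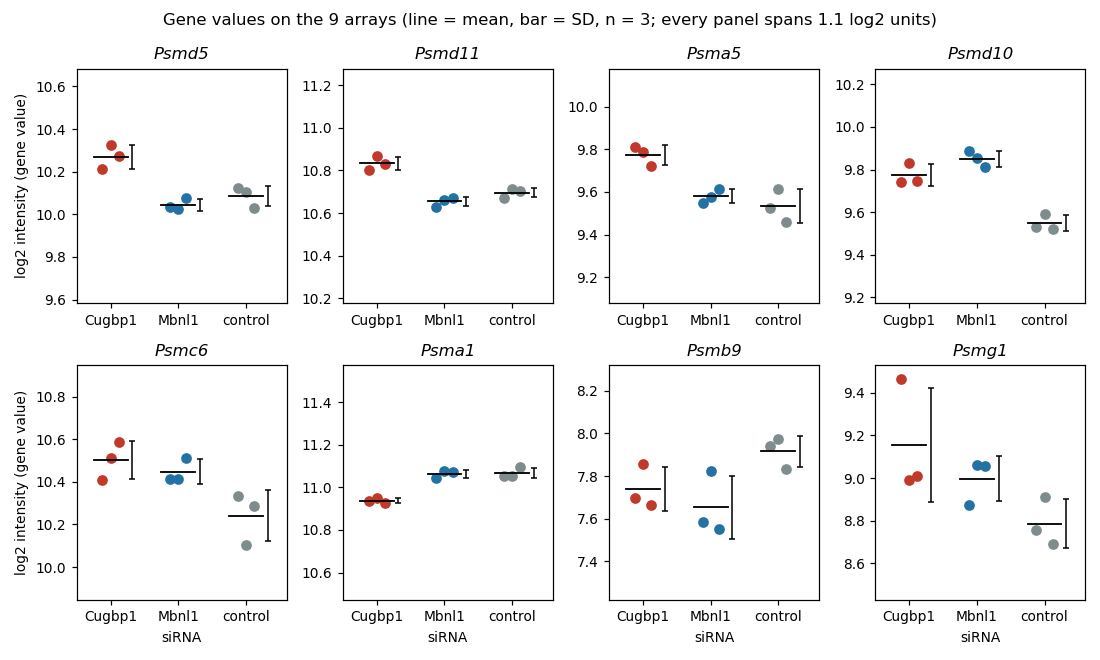
Gene values (log2 intensity) of 8 proteasome subunit genes on the 9 arrays, by siRNA, with the mean (line) and SD (bar) of 3 arrays. In these values Psmd5, Psmd11 and Psma5 are higher on the Cugbp1 siRNA arrays than on all others, Psmd10 and Psmc6 are higher on both sets of siRNA arrays, and the mean of Psmg1 after Cugbp1 siRNA rests on 1 array at 9.46.

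Promoter sequence was set beside these changes for 5 members, those called in every alternative setting and those called between the siRNAs. The windows are those of RefSeq (GRCm38.p6), from 250 bases before to 50 bases after the annotated start, and 40 of the 48 members had one. The antioxidant response element core, which NRF1, the known activator of proteasome genes under proteasome inhibition, binds, was searched as TGACNNNGC. The ETS core was searched as CCGGAA and the CCAAT box as CCAAT, each on both strands, and the printed matches do not overlap each other. Shown are the 250 bases before the start on the gene's strand, 5′ to 3′, with each match in capitals. The genes are Psmd10 (chrX:140956712-140956961, minus strand), Psmc6 (chr14:45329574-45329823, plus strand), Psma5 (chr3:108256676-108256925, plus strand), Psmd5 (chr2:34870963-34871212, minus strand) and Psmd11 (chr11:80428365-80428614, plus strand).
Psmd10: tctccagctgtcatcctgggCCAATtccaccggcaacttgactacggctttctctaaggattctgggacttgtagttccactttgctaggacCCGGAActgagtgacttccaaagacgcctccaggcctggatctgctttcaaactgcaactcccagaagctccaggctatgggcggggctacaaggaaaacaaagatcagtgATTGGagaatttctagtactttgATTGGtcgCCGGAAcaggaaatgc
Psmc6: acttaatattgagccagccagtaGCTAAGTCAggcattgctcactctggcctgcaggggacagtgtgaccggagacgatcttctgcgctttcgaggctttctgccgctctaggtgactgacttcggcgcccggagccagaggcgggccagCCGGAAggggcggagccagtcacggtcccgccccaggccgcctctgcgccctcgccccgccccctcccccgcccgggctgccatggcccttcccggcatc
Psma5: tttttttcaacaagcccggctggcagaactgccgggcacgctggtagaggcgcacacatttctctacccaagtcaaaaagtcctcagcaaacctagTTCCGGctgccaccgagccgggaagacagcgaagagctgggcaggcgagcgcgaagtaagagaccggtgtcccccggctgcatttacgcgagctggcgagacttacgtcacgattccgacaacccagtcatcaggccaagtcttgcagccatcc
Psmd5: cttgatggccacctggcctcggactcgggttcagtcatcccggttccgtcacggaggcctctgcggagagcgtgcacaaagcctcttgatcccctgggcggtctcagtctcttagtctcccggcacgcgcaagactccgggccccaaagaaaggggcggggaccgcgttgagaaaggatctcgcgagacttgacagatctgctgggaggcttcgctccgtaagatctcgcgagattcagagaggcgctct
Psmd11: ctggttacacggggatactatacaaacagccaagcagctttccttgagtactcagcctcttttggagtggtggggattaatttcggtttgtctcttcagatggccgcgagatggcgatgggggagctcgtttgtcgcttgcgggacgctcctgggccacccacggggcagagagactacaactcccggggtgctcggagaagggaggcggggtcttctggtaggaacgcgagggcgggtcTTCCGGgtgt

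Psmd10 held the ETS core at 2 places and the CCAAT box at 3, the nearest ETS core ending 11 bases before the start. Psmc6 was the only gene of the 5 with the antioxidant response element core in its window, read on the opposite strand, and it also held 1 ETS core. Psma5 and Psmd11 each held the ETS core in the printed stretch on the opposite strand, and Psmd5 held none of the 3 motifs. Of the 40 members with a window, 20 (50%) held the ETS core, beside 29.5% of the 10093 tested genes with a window and 16.7% of all 27025 genes in the table. The antioxidant response element core was found in 6 (15%), beside 16.9% and 14%, and the CCAAT box in 14 (35%), beside 42% and 41.1%. Among the 14 members called in any comparison, 9 held the ETS core, 2 the antioxidant response element core and 7 the CCAAT box. A match describes letters in a window and is not a measured binding site.

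Single probe sets were then compared with their gene, which asks whether part of a transcript moved apart from the rest. The departure is the log2 value of a probe set minus its gene value on the same array, tested with limma over 158713 probe sets. After Cugbp1 siRNA 18 of 560 member probe sets were called (3.21%), beside 5.11% of all, and they lay in 12 of 42 genes. After Mbnl1 siRNA 49 of 560 were called (8.75%), beside 9.54% of all, in 27 of 42 genes. Of the 18 called after Cugbp1 siRNA, 12 were also called after Mbnl1 siRNA. Between the siRNAs limma called 0 of 560, beside 0.0769% of all, with 35 at an unadjusted p under 0.05, a smallest adjusted p of 0.387, and 1 call by diffSplice. The counts moved with single arrays. After Cugbp1 siRNA the count was 8 without Cugbp1 array 2, 6 without Cugbp1 array 3, 11 without Mbnl1 array 2, 32 without control array 1 and 8 without control array 3. After Mbnl1 siRNA it was 19, 26 and 14 without Mbnl1 array 1, 2 and 3, and 23 without control array 3.

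Psme4 carried more called probe sets than any other member, and it also has the most probe sets of the family. After Cugbp1 siRNA 6 of 58 were called (5 higher, 1 lower), beside 5.11% of all probe sets tested. After Mbnl1 siRNA it was 13 of 58 (9 higher, 4 lower), beside 9.54%. The 6 were called in both comparisons. Smaller members had similar proportions after Mbnl1 siRNA, with 3 of 14 in Psmd14 and in Psmc1 and 2 of 9 in Psmg2. Probe set 4557458 of Psme4 read 7.19, 7.37 and 7.74 after Cugbp1 siRNA, 7.77, 7.69 and 7.69 after Mbnl1 siRNA and 6.24, 5.94 and 5.99 in controls. It departed from its gene by 1.25 after Cugbp1 siRNA and 1.49 after Mbnl1 siRNA (limma, adjusted p = 0.000637 and 9.79e-05). All siRNA arrays lay above all controls, but the control values are below the filter threshold of 6.997, where the size of a change is uncertain. The probe set passed the filter only through siRNA arrays, where it is high, so its adjusted p is not independent of that filter.

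Some brighter Psme4 probe sets also moved upwards, by less, but the Psme4 probe sets called lower had the higher median intensity. After Cugbp1 siRNA the 1 called lower had a log2 level of 11.06, against a median of 8.46 for the 5 called higher. After Mbnl1 siRNA the 4 called lower had a median of 11.04, against 8.46 for the 9 called higher. The median of all 58 was 10.06. Probe set 4560132 read 9.63, 9.78 and 9.73 after Cugbp1 siRNA, 9.63, 9.79 and 9.97 after Mbnl1 siRNA and 9.25, 9.07 and 8.98 in controls, a departure of 0.49 and 0.53 (limma, adjusted p = 0.00741 and 0.00281). Probe set 5533760 read 8.88, 9.23 and 9.07, then 9.40, 9.39 and 9.48, against 8.67, 8.11 and 8.40 in controls, in the same order of groups, a departure of 0.54 and 0.87 (0.0131 and 0.000415). For both, every siRNA array lay above every control array. Probe set 4964420 departed by 0.91 after Mbnl1 siRNA (0.00567), with values of 7.87, 7.73 and 7.98 against 6.70, 6.76 and 6.91 in controls. These control values too are below the filter threshold, and the probe set passed the filter only through siRNA arrays, so its departure carries the same limit. No Psme4 probe set departed differently between the siRNAs (smallest adjusted p = 0.591).

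Outside Psme4 the departures with the smallest adjusted p lay in 4 genes. Probe set 4558760 of Psmc1 read 9.70, 9.57 and 9.70 after Cugbp1 siRNA, 9.60, 9.71 and 9.54 after Mbnl1 siRNA and 9.06, 8.97 and 9.03 in controls. It departed upwards by 0.46 after each siRNA (limma, adjusted p = 0.00838 and 0.00486), without overlap. Probe set 5350816 of Psmd13, a lid gene that was not called as a whole, read 9.38, 9.31 and 9.48 after Mbnl1 siRNA against 9.04, 8.52 and 8.78 in controls, a departure of 0.64 (0.00444). It was also called higher after Cugbp1 siRNA.

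Downward departures led in the other 2 genes. Probe set 5259593 of the ATPase gene Psmc4 read 10.96, 10.88 and 10.40 after Cugbp1 siRNA against 11.24, 11.37 and 11.26 in controls, a departure of -0.58 (limma, adjusted p = 0.00933). Cugbp1 array 3 was the lowest of them. Probe set 5470978 of the chaperone gene Psmg2 read 9.46, 9.36 and 8.87 after Cugbp1 siRNA against 9.77, 9.57 and 10.12 in controls, a departure of -0.73 (0.00990). This Psmg2 probe set was also called after Mbnl1 siRNA. The array does not say here which exon or transcript end these probe sets cover, since no coordinates were used.

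Brightness moved with the direction of departure. Member probe sets called higher had a median level of 8.46 after Cugbp1 siRNA and 8.97 after Mbnl1 siRNA, and those called lower 9.41 and 11.14, while all 560 had a median of 10.21. The same order held over all genes, with 8.52 and 8.59 for probe sets called higher and 9.51 and 9.50 for those called lower. The part of brightness in the departures was not tested.

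**Figure D5:**
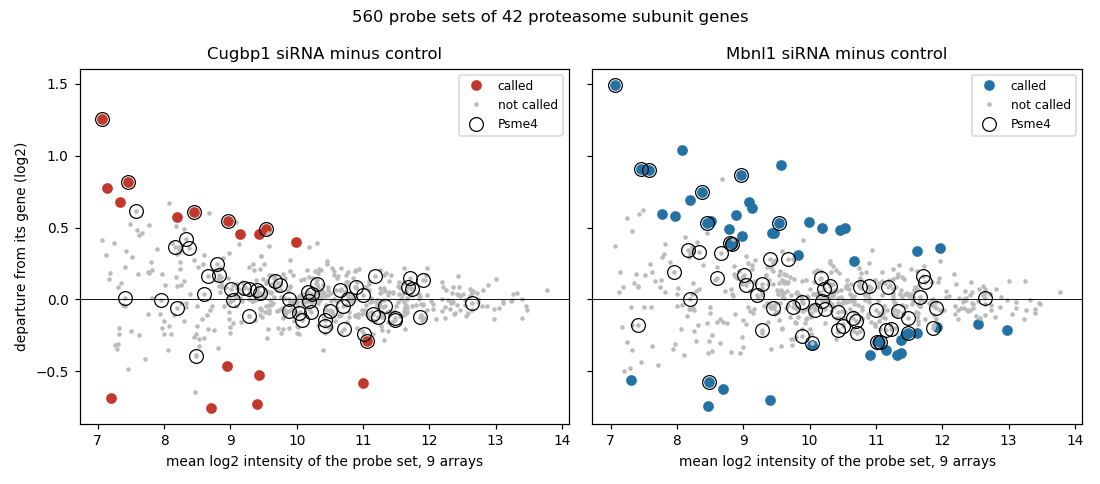
Departure of each of 560 probe sets from its gene (log2) against its mean log2 intensity over 9 arrays, after Cugbp1 siRNA (left) and Mbnl1 siRNA (right). Filled points were called, 18 and 49 of them, rings mark Psme4, and the largest upward departures, 1.25 and 1.49, belong to 1 dim Psme4 probe set.

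Genes that work with the proteasome but carry other names were read from a list of 54, of which 45 were tested. After Cugbp1 siRNA 13 were called higher and 3 lower, after Mbnl1 siRNA 14 higher and 4 lower, beside the 38.7% and 41.5% of all genes given above. Between the siRNAs 2 were higher after Cugbp1 siRNA and 6 lower, beside 9.34% of all genes. Of 4 other subunits and assembly factors tested, 2 were called higher after Cugbp1 siRNA, beside 26% of all genes. After Mbnl1 siRNA 0 were, beside 26.9%. The ubiquitin receptor Adrm1 changed by 0.02 and -0.06 and the assembly factor Pomp by 0.05 and 0.02, neither called. The small lid subunit Sem1 rose by 0.18 and the proteasome adaptor Ecpas by 0.21 after Cugbp1 siRNA (limma, adjusted p = 0.0321 and 0.00927). Nfe2l1, which encodes the transcription factor NRF1, changed by 0.07 and 0.02 and was not called. Its partner genes Maff, Mafg and Mafk were not called in either comparison with control. Mafg came close after Mbnl1 siRNA (-0.16, limma, adjusted p = 0.0502). Of 10 tested genes listed around NRF1, 2 were called higher and 0 lower after Cugbp1 siRNA, beside 26% and 12.7% of all genes. After Mbnl1 siRNA 3 were higher and 2 lower, beside 26.9% and 14.6%. Vcp rose by 0.12 and 0.16 (0.0263 and 0.00884) and Ufd1 by 0.21 after Cugbp1 siRNA (0.0314). After Mbnl1 siRNA Ngly1 changed by 0.20 (0.0261) and Nploc4 by -0.14 (0.0217).

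Of 12 tested genes of proteasome-bound enzymes and shuttle factors, 6 were called higher and 1 lower after Cugbp1 siRNA and 5 higher and 1 lower after Mbnl1 siRNA. The shares of all genes were 26% higher and 12.7% lower, and 26.9% higher and 14.6% lower. Txnl1, a thioredoxin-like protein bound to the lid, rose by 0.37 after Cugbp1 siRNA and 0.28 after Mbnl1 siRNA (limma, adjusted p = 0.000874 and 0.00209). Ube3a, a ubiquitin ligase that associates with the proteasome, rose by 0.35 and 0.33 (0.0106 and 0.0119), and Zfand5, a stimulator of proteasome activity, by 0.29 and 0.34 (0.00614 and 0.00240). The deubiquitinase gene Uchl5 rose by 0.25 after Cugbp1 siRNA (0.0358), though 1 of its Cugbp1 siRNA arrays overlapped the controls. Uba6, an E1 enzyme of ubiquitin, rose by 0.22 and 0.27 (0.0245 and 0.00903).

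Among ubiquitin ligases of muscle, Cblb rose by 0.37 and 0.44 (limma, adjusted p = 0.000891 and 0.000244) and Traf6 by 0.22 after Cugbp1 siRNA (0.00519). The atrophy ligase gene Trim63 fell by 0.38 and by 0.27 (0.00251 and 0.0106), on 3 probe sets. Fbxo32, the other classical atrophy ligase, was lower after Cugbp1 siRNA than after Mbnl1 siRNA by 0.29 (a difference of -0.29, adjusted p = 0.00843). Against control it rose by 0.21 after Mbnl1 siRNA (0.0118), and its change after Cugbp1 siRNA was -0.08 (0.240). Fbxo32 was dim as well, at 7.36 to 7.79. The endoplasmic reticulum genes Sel1l and Syvn1, which act in the degradation of misfolded proteins, moved apart: Sel1l rose by 0.28 after Mbnl1 siRNA (0.00142), and between the siRNAs it differed by -0.18 (0.0444) and Syvn1 by 0.25 (0.0172). Ubqln4, a shuttle factor, differed by 0.20 (0.0242).

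Antigen processing takes peptides from the immunoproteasome. Of 11 tested genes of this list, 4 were called lower after Cugbp1 siRNA than after Mbnl1 siRNA and 0 higher, beside 5.07% and 4.27% of all genes. They were the interferon-gamma receptor genes Ifngr1 (-0.28; limma, adjusted p = 0.00523) and Ifngr2 (-0.24, 0.0112), the class I gene H2-D1 (-0.28, 0.0187) and its regulator Nlrc5 (-0.23, 0.0442). Ifngr1 rose by 0.24 after Mbnl1 siRNA (0.00296). Psmb9 and Psmb10, the immunoproteasome members tested, differed between the siRNAs by 0.09 and 0.03 and were not called (0.561 and 0.864).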

How the data were processed

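RNA of C2C12 cells, 9 samples with 3 per siRNA, was read on exon arrays. The authors' deposited intensity values, 1 per probe set on a linear scale, were made with RMA in Affymetrix Expression Console for build mm9, per the submitters' processing notes; for their versions, none is given in the sources used here. RMA corrects the background and scales arrays to a common distribution, so shifts shared by all probe sets are removed. No arrays held identical values. Precision is limited by how few arrays there are.

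The deposited values were taken to log2. Symbols came from the platform annotation: of 1195555 probe sets, 316997 had 1 symbol, 6571 had several and 871987 were unlisted. Of 22264 symbols, 17988 were current in the RefSeq table of GRCm38.p6, 4213 were updated and 63 were kept as given. Probe sets with a mean under the 75th percentile (log2 6.997, an intensity of 128) were left out, and the rest were summarised per gene by median polish where at least 3 remained. The gene test was limma 3.58.1 under R 4.3.3 (lmFit with 3 group means over 9 arrays, eBayes, Benjamini-Hochberg over all genes). Departures of probe sets from their gene were fitted likewise, with a trend of variance on level, for genes with at least 4 kept probe sets. Fits were tested on simulated data with known changes. The simulated noise took its spread from the fit of these data and held no shift between arrays, so it cannot address the scaling.

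Values on each array are given for the catalytic beta subunits and for called members, changes for called members and for the extremes of each role class, and single probe sets for the 6 called ones with the smallest adjusted p per comparison with control. From the wider list the 8 called genes with the largest change per comparison are named. Sem1, Ecpas, Adrm1, Pomp, Nfe2l1, the Maf genes, Vcp, Ufd1, Ngly1 and Nploc4 were named beside that rule, after their values were seen. So were the low scaffold and Psmb2 values on Cugbp1 array 1. The members and lists were chosen with earlier results of these data known. Alternatives covered the filter, the scaling, the summary, the variance moderation, the arrays in the fit, a replicate block and leaving out each array.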

Additional observations from a re-analysis of the deposited data

Results flagged for a closer look

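For 3 proteasome subunit genes the response differed between the siRNAs by a test of the difference itself (limma with Benjamini-Hochberg, over all genes tested, 3 arrays per group). Psmd5 was higher after Cugbp1 siRNA than after Mbnl1 siRNA by 0.23 on the log2 scale (adjusted p = 0.0134), Psmd11 by 0.18 (adjusted p = 0.0198) and Psma5 by 0.19 (adjusted p = 0.0403). All 3 Cugbp1 siRNA arrays lay above all 3 Mbnl1 siRNA arrays for each gene. Each call was lost on leaving out at least 1 array, as given with the values above.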

How the results depend on the processing

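Of the called members, Psma5, Psmc6 and Psmd10 after Cugbp1 siRNA and Psmd10 after Mbnl1 siRNA passed in all 19 alternatives; every other member call was lost in at least 1, and no called member change turned its sign. Small uncalled changes did: members above 0 after Cugbp1 siRNA numbered 36 as deposited and 19 with gene values centred. Called members after Cugbp1 siRNA (12: 11 higher, 1 lower) numbered 6 (6 higher, 0 lower) with only the arrays of both groups, 6 (3 and 3) with gene values centred on their median and 6 (5 and 1) with gene values quantile-normalised. The lower count was 2 without the filter, with the replicate block and with the mean of probe sets, and 0 with arrays centred on their median. Leaving out 1 array gave 6 to 15 in all, 6 to 14 higher and 0 to 2 lower. After Mbnl1 siRNA (6: 4 higher, 2 lower) the count was 3 without the filter (1 higher), 3 with a stricter filter (0 lower), 3 with quantile normalisation repeated (1 higher) and 11 with arrays centred (10 higher, 1 lower). There were 7 higher and 1 lower with the mean of probe sets, 1 higher and 6 lower with centred gene values, 1 higher with quantile-normalised gene values and 2 higher with the replicate block. Leaving out 1 array gave 1 to 9 in all, 1 to 7 higher and 0 to 2 lower. Between the siRNAs (3 higher, 0 lower) 1 was higher without the filter, and 1 was lower with the stricter filter, with another variance moderation and with quantile-normalised gene values. Leaving out 1 array gave 0 to 3 higher and 0 to 0 lower. Departing probe sets after Cugbp1 siRNA (18) numbered 8 with another moderation, 9 with only both groups and 35 by diffSplice, and 6 to 32 on leaving out 1 array. After Mbnl1 siRNA (49) they numbered 20 with another moderation and 14 to 66 on leaving out 1 array. Between the siRNAs (0) diffSplice called 1, and 0 to 0 were called on leaving out 1 array. The cause of these moves was not tested. Centring gene values put the median of all genes at -0.03 after each siRNA, against 0.05 and 0.04 as deposited.

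Replicate numbers did not pair the arrays: deviations of same-numbered arrays correlated at -0.10 to 0.12, and 1 of 9 pairs exceeded 0.1. With the replicate block 11, 4 and 2 members were called after Cugbp1 siRNA, after Mbnl1 siRNA and between them, and 21, 51 and 0 probe sets departed. Signals near the filter threshold, such as those of Psmb9, Trim63, Fbxo32, Nlrc5 and the dim Psme4 probe sets, limit the size that can be read from a change.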
